A study of Mus musculus with 11 samples.

Results

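The mitosis, spindle and kinetochore genes are the genes whose products take a cell from the end of DNA replication through chromosome segregation to the splitting of the cell. They were chosen by symbol as a fixed list of G2/M kinases and cyclins, kinesins, kinetochore proteins, condensin subunits and cytokinesis proteins, and the list held 54 of the 52550 genes in the count table. All 54 had enough reads to be tested. In the colonic epithelium of mice fed without fiber, all 54 had a log2 fold change below 0 relative to mice fed cellulose. Of them, 36 were lower and 0 were higher at an adjusted p below 0.05 in edgeR's quasi-likelihood test with Benjamini-Hochberg adjustment. Of all 15044 genes tested, 18.6% were called lower and 18.2% higher in the same test.

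The epithelial cells came from the colon of 11 C57BL/6 mice that lacked RAG1, which is required for T and B cells. The CD group (n = 5) received a purified diet that held cellulose, and the FFD group (n = 6) received the same kind of diet free of any fiber. Each diet was given for 4 weeks, and all mice then received dextran sulphate sodium (DSS), which injures the colonic epithelium, in their drinking water for 5 days. No mouse without DSS, no mouse with RAG1 and no other time point is part of the comparison, so every value below describes injured epithelium in mice that lack T and B cells. The sample names carry the number 1 for every CD mouse and the number 2 for every FFD mouse, and whatever that number marks cannot be told apart from diet. The labels give neither age nor sex, and the cells were shaken off the colon in EDTA, with no sort described. Rag1 itself had 8 to 40 counts per mouse (1.17 ± 0.22 CPM in CD and 1.08 ± 0.18 CPM in FFD), which does not check the genotype, since the part of the gene that was deleted is not stated. Each library held between 10374154 counts (FFD mouse 4) and 28588266 counts. Levels are given as normalized CPM, that is, a gene's counts after every library was scaled to the same size with TMM factors. P-values set the difference between the diets against the spread between these mice within a diet, and do not cover a repeat of the experiment. Because the RNA came from bulk cells, fewer dividing cells and less RNA of these genes per dividing cell cannot be told apart.

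Division in the colonic epithelium takes place in the lower crypt, where stem cells and transit-amplifying cells cycle, and cells stop dividing as they move up and become absorptive colonocytes and goblet cells. Most of these genes are transcribed mainly in G2 and mitosis. In resting cells the DREAM complex, a repressor built from MuvB proteins and a pocket protein, sits on their promoters at a short element called CHR. Later in the cycle B-MYB, encoded by Mybl2, and FOXM1 join MuvB and the promoters become active, often together with NF-Y bound to CCAAT boxes.

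**Figure D1:**
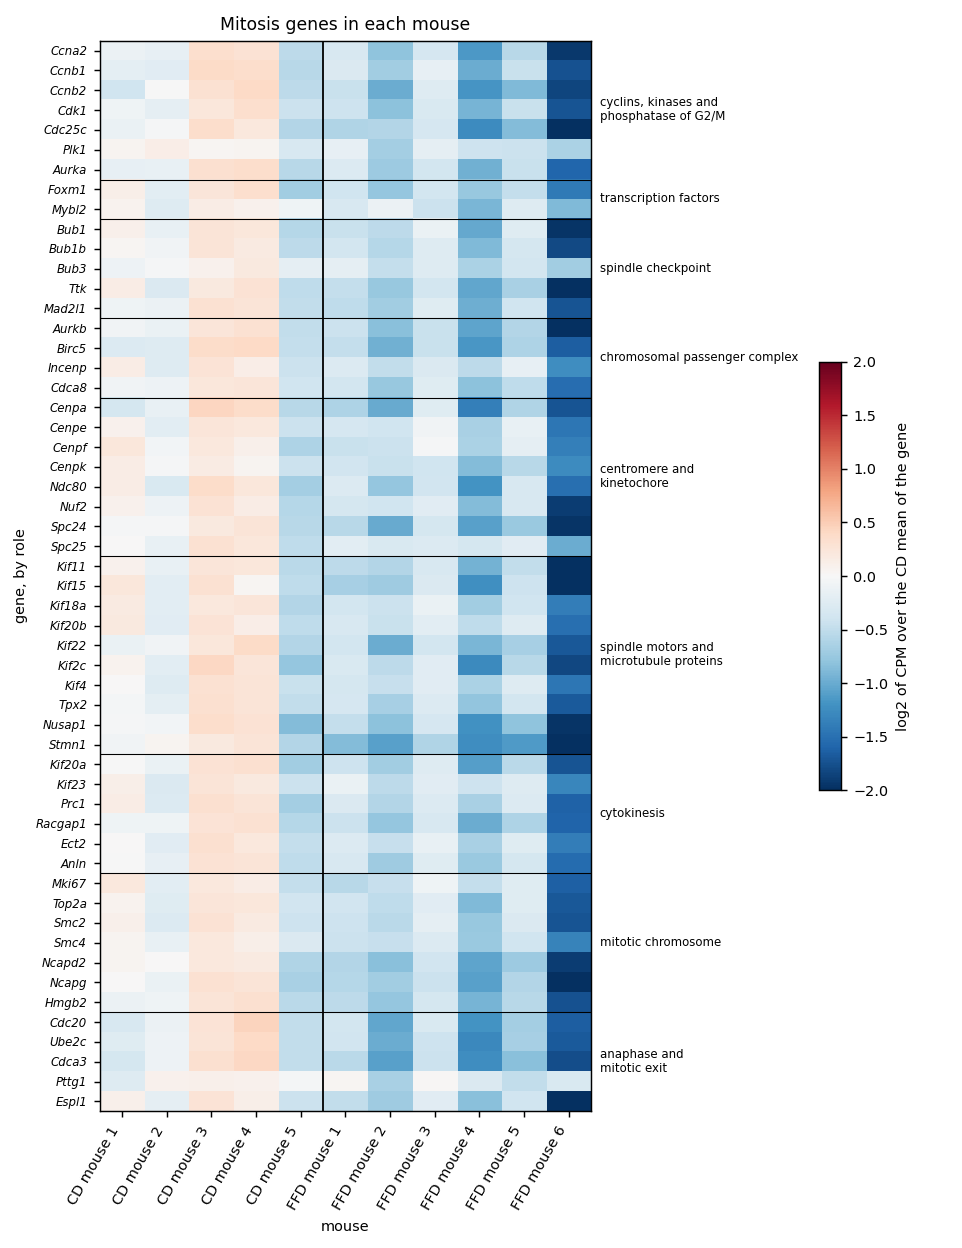
Each of the 54 mitosis genes (rows, by role) in each mouse (columns), coloured by the log2 of its CPM over the mean CPM of the CD mice; values below -2 are drawn at -2. CD mice 3 and 4 are the reddest columns (medians 0.30 and 0.27), CD mouse 5 is blue like the FFD columns (median -0.48), and FFD mouse 6 is the darkest (median -1.65).

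The promoter letters were examined because these genes moved in one direction. Of the 54 genes, 44 had a promoter window in RefSeq (GRCm38.p6), with 49 windows among them, and the 250 bases before each start site were searched on both strands. The CHR element, searched as TTTGAA or TTCGAA, was found in 42.9% of these windows and in 17.1% of all windows in the table. It was found in 12.7% of the windows of genes tested here and in 16.7% of those of DNA replication genes. The CCAAT box, searched as CCAAT, was found in 75.5% of the members' windows and 56.2% of those of replication genes, against 35.2% for genes tested and 33.8% of all windows. Both elements together were in 38.8% of the members' windows, 10.4% of those of replication genes, 4.77% of those of genes tested and 6.02% of all windows. An E2F motif, searched as TTTGGCGC, TTTCGCGC, TTTGGCGG or TTTCCCGC, was in 8.16% of the members' windows and in 25% of those of replication genes. It was in 3.20% of those of genes tested and in 1.96% of all windows. The forkhead motif, searched as TAAACA, was in 12.2% of the members' windows, 8.45% of those of genes tested and 12.03% of all windows. Matches of different motifs may overlap, and a match is a description of the letters, not of a bound factor. For 10 genes (Aurkb, Ccna2, Cdc25c, Foxm1, Incenp, Kif20a, Smc4, Spc24, Stmn1 and Tpx2) no window was used.

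The stretches around the CHR are shown for the 6 genes with the smallest p among those that fell and hold one, 5′ to 3′ on the strand of the gene, with CHR and CCAAT matches in capitals. For Bub3 and Ube2c, whose CHR lies inside an annotated exon, only the site itself is given. Kif22 holds 2 CHR matches, of which the stretch shows the one 215 bases before the start and not the one 17 bases before it. The coordinates follow GRCm38.p6.
Bub3, chr7:131560318-131560337, plus strand: ccgttggcgTTCAAAatcag
Ncapd2, chr6:125191702-125191800, minus strand: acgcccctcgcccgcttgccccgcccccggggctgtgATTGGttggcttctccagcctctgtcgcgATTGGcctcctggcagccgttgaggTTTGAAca
Ube2c, chr2:164769891-164769914, plus strand: gggttgcaaTTCAAAcgcgggcgg
Hmgb2, chr8:57511713-57511842, plus strand: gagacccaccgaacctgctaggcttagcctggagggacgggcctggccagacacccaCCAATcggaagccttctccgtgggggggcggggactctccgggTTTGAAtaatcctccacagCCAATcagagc
Kif22, chr7:127042516-127042645, minus strand: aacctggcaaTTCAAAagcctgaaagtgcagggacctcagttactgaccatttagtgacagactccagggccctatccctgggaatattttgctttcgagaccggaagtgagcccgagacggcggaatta
Cdc20, chr4:118437353-118437482, minus strand: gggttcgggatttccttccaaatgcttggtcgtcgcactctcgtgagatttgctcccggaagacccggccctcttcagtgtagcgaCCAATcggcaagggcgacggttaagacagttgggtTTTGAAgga

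In Hmgb2 the CHR shown began 30 bases before the start site, with a CCAAT box 73 bases and another 11 bases before it. Another CHR of Hmgb2, 218 bases before the start, lay outside the stretch shown. The CHR of Cdc20 began 18 bases before the start and its CCAAT box 53 bases before it. In Ube2c the CHR lay 29 bases and in Bub3 43 bases before the start. Across the members' windows, 12 of 49 (24.5%) had a CHR within 50 bases of the start, against 2.77% of all windows; this distance was chosen after the positions had been seen. Genes that fell were found with and without the element. Of the 19 members with a CHR, 13 were called lower and the median log2 fold change was -0.70. Of the 25 members with a window and no CHR, 14 were called lower and the median was -0.59.

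Among the regulators of mitotic entry, 6 of 7 genes fell. The list holds cyclin A2 (Ccna2), the B cyclins (Ccnb1, Ccnb2), the kinase that they activate (Cdk1), the phosphatase that removes the inhibitory phosphates from it (Cdc25c), and the kinases Plk1 and Aurka that start spindle assembly. Plk1 (chr7:122159439-122169873, plus strand) had 103, 109, 102, 103 and 79.8 CPM in CD mice 1 to 5, and ranged from 62.2 to 89.1 CPM with a median of 74.3 in FFD mice. CD mouse 5 lay inside the FFD range and the other 4 CD mice above every FFD mouse. The 5 CD mice averaged 99.3 ± 11.3 CPM (SD) and the 6 FFD mice 75.3 ± 11.3 CPM (SD), a log2 fold change of -0.40 (standard error 0.11, adjusted p = 0.0119, edgeR).

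Ccnb2 stood at 44.8, 58.9, 73.4, 78.6 and 41.3 CPM in CD mice 1 to 5 and between 16.7 and 49.9 CPM, median 31.0, in FFD mice. CD mice 1 and 5 lay inside the FFD range, and the log2 fold change was -0.84 (standard error 0.25, adjusted p = 0.0182, edgeR). Cdk1, the kinase at the centre of mitotic entry (chr10:69335146-69352938, minus strand), had 65.0, 61.1, 80.1, 86.9 and 51.0 CPM in CD mice 1 to 5 and 20.9 to 55.6 CPM, median 44.7, in FFD mice. Again CD mouse 5 alone of its group lay inside the FFD range. Cdk1 fell by 0.70 on the log2 scale (standard error 0.21, adjusted p = 0.0215, edgeR).

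Its partner Ccnb1 was the member of this list that did not pass. Its CD values of 55.5, 54.2, 82.8, 80.4 and 43.1 CPM overlapped the FFD values of 19.0 to 56.7 CPM, median 42.5, in 3 of the 5 CD mice. The log2 fold change of Ccnb1 was -0.63 (standard error 0.24, adjusted p = 0.0598, edgeR), close to that of Cdk1 but with a wider error. Ccna2 went from 154 ± 37.1 CPM in CD mice to 91.3 ± 32.3 CPM in FFD mice and fell by 0.75 on the log2 scale. Cdc25c and Aurka also fell, by 0.83 and 0.66 on the log2 scale. Reads of Ccna2 may include reads of Exosc9, and those of Cdc25c reads of Gm3550, since each pair has overlapping exons on opposite strands and no source used here gives the use of strand in the counting.

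Both transcription factors of the list fell. Foxm1 (chr6:128362967-128376146, plus strand), which drives the late wave of mitotic transcription, had 40.6, 32.4, 44.5, 47.6 and 23.2 CPM in CD mice 1 to 5 and 14.2 to 29.2 CPM, median 24.5, in FFD mice. All CD mice but mouse 5 lay above the FFD range (log2 fold change -0.65, standard error 0.20, adjusted p = 0.0210, edgeR). Mybl2, which encodes B-MYB, had 34.2, 27.3, 36.4, 34.8 and 30.9 CPM in CD mice against 17.4 to 30.3 CPM, median 25.3, in FFD mice. Here it was CD mouse 2, not CD mouse 5, that lay inside the FFD range. The log2 fold change of Mybl2 was -0.44 (standard error 0.14, adjusted p = 0.0242, edgeR), and its SD in CD mice was 3.65 CPM on a mean of 32.7 CPM. Foxm1 shares exon sequence with its neighbour Tex52.

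**Figure D2:**
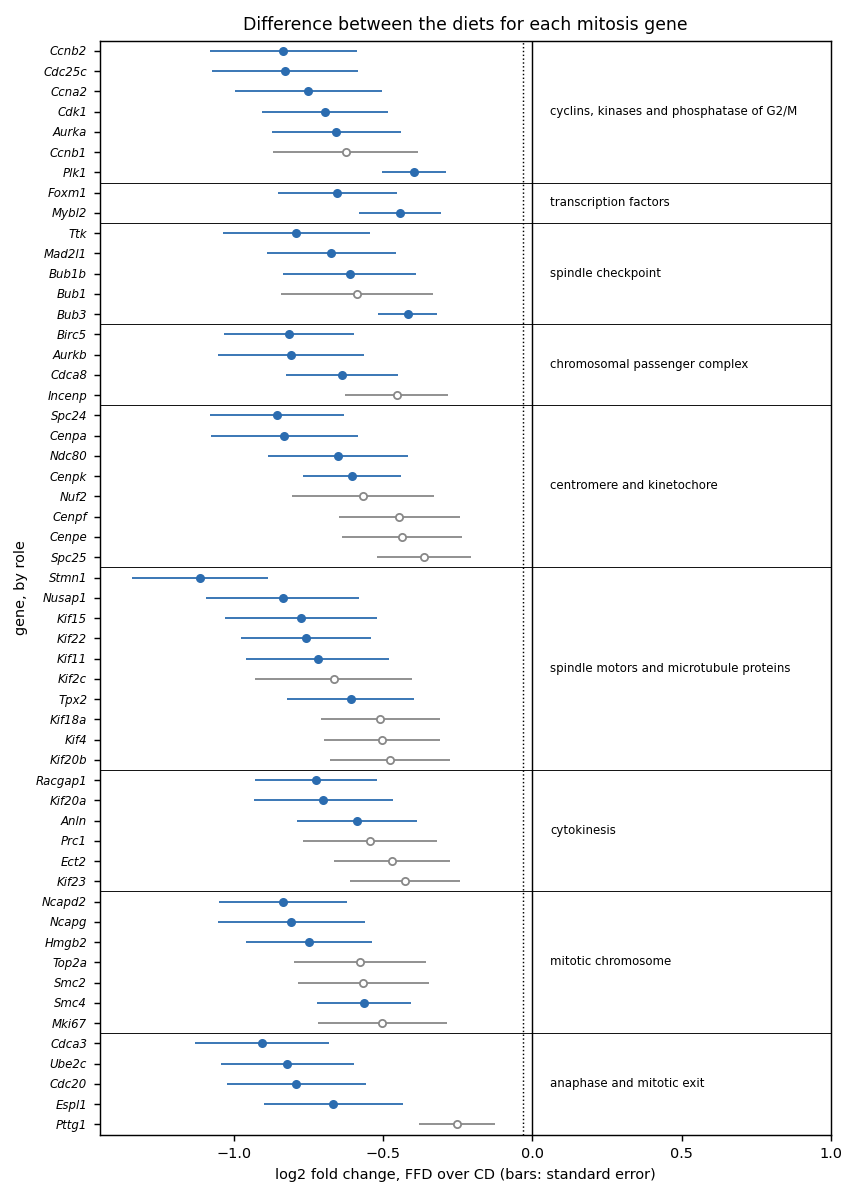
Log2 fold change of each mitosis gene, FFD over CD (x axis; bars are standard errors from edgeR), by role and ordered by size within a role; filled blue points passed at an adjusted p below 0.05, open grey points did not, and the dotted line is the median over all genes tested. Every point lies left of 0, from -1.11 (Stmn1) to -0.25 (Pttg1).

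The spindle checkpoint, which delays anaphase until every kinetochore is attached, had 4 of 5 genes lower. Bub3 (chr7:131560222-131571895, plus strand), the subunit that brings BUB1 and BUBR1 to the kinetochore, had 68.8, 72.7, 78.6, 84.6 and 65.24 CPM in CD mice 1 to 5. In FFD mice it ranged from 45.8 to 65.18 CPM, with a median of 55.3. The diets did not overlap, but the lowest CD mouse and the highest FFD mouse were separated by less than 0.1 CPM. Its log2 fold change was small and precise at -0.42 (standard error 0.10, adjusted p = 0.00624, edgeR).

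Ttk, the kinase MPS1 at the head of the checkpoint, had 19.98, 14.7, 20.6, 21.9 and 12.7 CPM in CD mice and 3.96 to 14.0 CPM, median 11.03, in FFD mice. CD mouse 5 lay inside the FFD range, and the log2 fold change was -0.79 (standard error 0.25, adjusted p = 0.0243, edgeR). Mad2l1, whose product MAD2 inhibits CDC20, fell by 0.67, and Bub1b, which encodes BUBR1, fell by 0.61 on the log2 scale with an adjusted p of 0.0464 (edgeR), just under the threshold. Bub1 had 26.0 ± 5.64 CPM in CD and 17.1 ± 6.37 CPM in FFD and did not pass (log2 fold change -0.59, adjusted p = 0.0866, edgeR).

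In the chromosomal passenger complex, which corrects wrong attachments of microtubules and later directs cytokinesis, 3 of 4 genes fell. Birc5, which encodes survivin, had 53.7, 54.3, 83.4, 85.2 and 46.5 CPM in CD mice 1 to 5 and 20.7 to 47.3 CPM, median 37.7, in FFD mice. CD mouse 5 lay just under the highest FFD mice and the other CD mice above all of them (log2 fold change -0.82, standard error 0.22, adjusted p = 0.0113, edgeR). Cdca8, which encodes borealin, had 42.7, 41.7, 52.4, 53.2 and 34.1 CPM in CD mice and 15.7 to 38.0 CPM, median 29.1, in FFD mice, a log2 fold change of -0.64 (standard error 0.19, adjusted p = 0.0177, edgeR). As with Birc5, CD mouse 5 alone overlapped the other diet.

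Aurkb, the kinase of the complex (chr11:69045647-69051664, plus strand), was at 41.0, 39.4, 51.1, 53.0 and 30.5 CPM in CD mice 1 to 5. Its FFD values ran from 9.48 to 32.0 CPM with a median of 26.4, so that CD mouse 5 lay below the highest FFD mice. Aurkb fell by 0.81 on the log2 scale (standard error 0.24, adjusted p = 0.0209, edgeR). Incenp, the scaffold that holds the complex together, had 55.5 ± 11.2 CPM in CD and 40.4 ± 9.19 CPM in FFD and missed the threshold (log2 fold change -0.46, adjusted p = 0.0536, edgeR).

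At the centromere and kinetochore, 4 of 8 genes fell. Spc24, a subunit of the NDC80 complex that binds microtubules, had 27.1, 27.2, 31.8, 33.2 and 18.8 CPM in CD mice 1 to 5 and 7.08 to 21.6 CPM, median 15.1, in FFD mice. Cenpk, of the inner kinetochore, had 8.32, 7.42, 8.42, 7.75 and 5.58 CPM in CD mice and 3.12 to 5.74 CPM, median 5.31, in FFD mice. In both genes CD mouse 5 was the only CD mouse inside the FFD range. The log2 fold change of Spc24 was -0.86 (standard error 0.22, adjusted p = 0.0105, edgeR) and that of Cenpk was -0.60 (standard error 0.16, adjusted p = 0.0126, edgeR). Exons of Cenpk overlap those of Ppwd1 on the annotation.

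The other kinetochore genes were split. Cenpa, the histone variant that marks the centromere, and Ndc80, which names the complex, fell by 0.83 and 0.65 on the log2 scale. Nuf2 and Spc25, partners of NDC80 and SPC24 in the same complex, did not pass. On the log2 scale Nuf2 differed by -0.57 (adjusted p = 0.0773, edgeR) and Spc25 by -0.36 (adjusted p = 0.0855, edgeR). Subunits of a complex that assembles in equal parts lay on both sides of the threshold, but no difference between subunits was tested. Cenpe, a kinesin that moves chromosomes to the spindle equator, and Cenpf, a large protein of the outer kinetochore, did not pass either, at -0.44 and -0.45 on the log2 scale (adjusted p = 0.103 and 0.101, edgeR).

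Of the 10 spindle motors and microtubule proteins, 6 fell. The largest difference of all 54 genes was in Stmn1 (chr4:134468320-134473843, plus strand), which encodes stathmin, a protein that takes tubulin out of microtubules. Stmn1 had 169, 184, 203, 212 and 117.9 CPM in CD mice 1 to 5, and ranged from 37.4 to 116.9 CPM with a median of 82.1 in FFD mice. Every CD mouse lay above every FFD mouse, though CD mouse 5 and FFD mouse 3 were about 1 CPM apart. The mean was 177 ± 37.2 CPM in CD mice and 81.8 ± 26.4 CPM in FFD mice. The fitted log2 fold change of -1.11 (standard error 0.23, adjusted p = 0.00310, edgeR) put the FFD level at 46.2% of the CD level.

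Kif22, a motor that pushes chromosome arms away from the poles, had 31.5, 33.0, 40.4, 45.3 and 23.2 CPM in CD mice and 10.7 to 26.9 CPM, median 20.2, in FFD mice. Only CD mouse 5 lay inside the FFD range (log2 fold change -0.76, standard error 0.22, adjusted p = 0.0158, edgeR). Kif11 and Kif15, the motors that push the spindle poles apart, fell by 0.72 and 0.78 on the log2 scale. Tpx2, which activates Aurora A on the spindle, and Nusap1, which bundles spindle microtubules, fell by 0.61 and 0.84. Nusap1 shares exon sequence with Oip5.

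The remaining 4 kinesins of the spindle did not pass. Kif2c, which takes microtubules apart at the centromere, had a log2 fold change of -0.67 with a standard error of 0.26 (adjusted p = 0.0612, edgeR). Kif18a, which damps chromosome movements, and Kif4, a motor of chromosome arms and the spindle midzone, stood at -0.51 and -0.50 on the log2 scale (adjusted p = 0.0605 and 0.0569, edgeR). For Kif20b, a motor that acts late in division, the log2 fold change was -0.48 (adjusted p = 0.0794, edgeR).

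Cytokinesis, the pinching apart of the daughter cells, was represented by 6 genes, of which 3 fell. Racgap1, part of the centralspindlin complex (chr15:99620496-99651656, minus strand), had 67.5, 67.1, 86.3, 88.0 and 48.0 CPM in CD mice 1 to 5 and 23.5 to 57.1 CPM, median 44.1, in FFD mice. Kif20a, a motor of the midzone, had 40.3, 37.3, 49.95, 50.8 and 25.1 CPM in CD mice and 12.3 to 33.9 CPM, median 26.7, in FFD mice. CD mouse 5 was again the only CD mouse within the FFD range in both genes. Their log2 fold changes were -0.73 (standard error 0.20, adjusted p = 0.0144, edgeR) and -0.70 (standard error 0.23, adjusted p = 0.0316, edgeR), and Kif20a shares exons with Cdc23.

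Anln, an actin-binding protein of the cleavage furrow, fell by 0.59 on the log2 scale (adjusted p = 0.0364, edgeR). Kif23, the motor subunit of centralspindlin beside RACGAP1, had 52.1 ± 10.7 CPM in CD and 38.6 ± 9.52 CPM in FFD and did not pass (log2 fold change -0.43, adjusted p = 0.0846, edgeR). Prc1, which bundles midzone microtubules, and Ect2, the exchange factor that activates RhoA at the furrow, did not pass either, at -0.54 and -0.47 on the log2 scale (adjusted p = 0.0744 and 0.0725, edgeR).

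**Figure D3:**
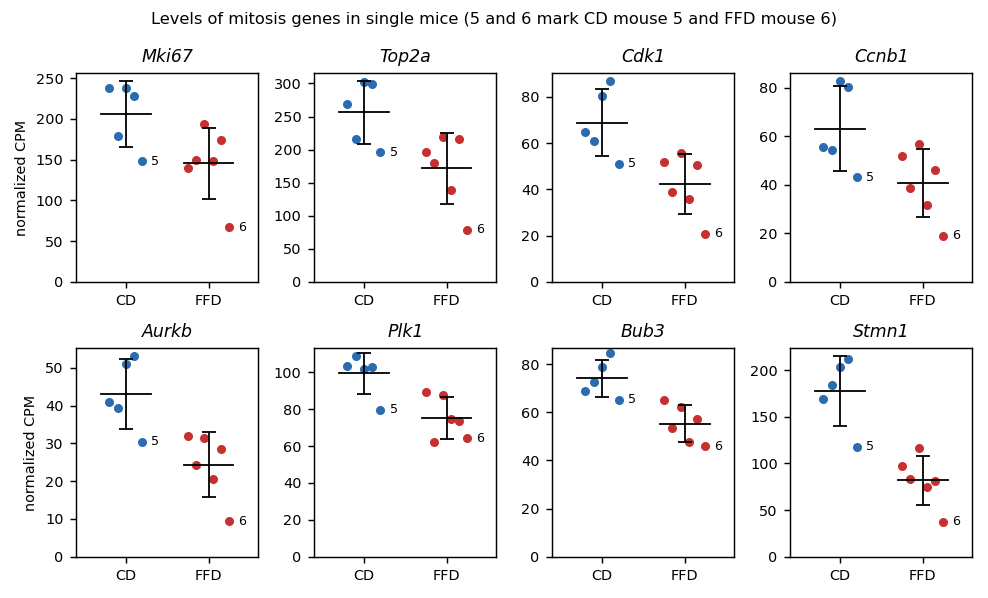
Normalized CPM of 8 mitosis genes in single mice (points; lines are the mean and SD of each diet, n = 5 CD and n = 6 FFD), with CD mouse 5 and FFD mouse 6 marked. In Bub3 and Stmn1 the diets do not overlap, and in the other 6 genes CD mouse 5 lies among the FFD mice.

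Of the 7 genes for mitotic chromosomes, 4 fell, and the textbook markers of proliferation were among the others. Mki67, which coats mitotic chromosomes and is the gene behind the Ki-67 stain (chr7:135689784-135716361, minus strand), had 238, 179, 238, 228 and 148 CPM in CD mice 1 to 5 and 66.7 to 193 CPM, median 149, in FFD mice. CD mice 2 and 5 lay inside the FFD range, and 5 of the 6 FFD mice lay between 139.8 and 193 CPM. The mean was 206 ± 40.9 CPM in CD and 145 ± 43.3 CPM in FFD, a log2 fold change of -0.50 that did not pass (standard error 0.22, adjusted p = 0.0825, edgeR).

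Top2a, the topoisomerase that untangles sister chromatids (chr11:98992943-99024189, minus strand), gave a like picture. It had 269, 216, 302, 298 and 196 CPM in CD mice and 78.7 to 219 CPM, median 188, in FFD mice, so that CD mice 2 and 5 overlapped. Top2a missed the threshold with a log2 fold change of -0.58 (standard error 0.22, adjusted p = 0.0548, edgeR). Without TMM scaling all 54 genes passed, Mki67 and Top2a included, but the median of all genes tested then shifted by -0.15 on the log2 scale. In that fit 32.3% of all genes tested were called lower, against 18.6% with TMM scaling.

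The condensin subunits, which compact the chromosomes, mostly fell. Ncapd2 (chr6:125168007-125191701, minus strand) had 82.8, 80.1, 92.2, 89.7 and 52.6 CPM in CD mice 1 to 5 and 21.2 to 60.9 CPM, median 46.4, in FFD mice. Smc4 had 127, 110.3, 142, 133 and 100.03 CPM in CD mice and 48.4 to 101 CPM, median 90.0, in FFD mice. CD mouse 5 overlapped the FFD range in both genes, in Smc4 with the highest FFD mouse alone. The log2 fold changes were -0.84 for Ncapd2 (standard error 0.21, adjusted p = 0.00933, edgeR) and -0.56 for Smc4 (standard error 0.16, adjusted p = 0.0144, edgeR). Ncapg fell by 0.81 on the log2 scale, while Smc2, the partner of SMC4 in the ring, had a log2 fold change of -0.57 and did not pass (adjusted p = 0.0572, edgeR). Hmgb2, a DNA-bending chromatin protein, went from 276 ± 62.3 CPM in CD to 164 ± 46.7 CPM in FFD and fell by 0.75 on the log2 scale.

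In the last step, anaphase and the exit from mitosis, 4 of 5 genes fell. Cdca3, a trigger of mitotic entry and a substrate of the anaphase-promoting complex, had 54.7, 65.2, 87.3, 92.7 and 49.4 CPM in CD mice 1 to 5 and 20.5 to 52.1 CPM, median 36.1, in FFD mice. Ube2c, the E2 enzyme of that ubiquitin ligase (chr2:164769898-164778822, plus strand), had 76.5, 84.7, 109, 119 and 64.3 CPM in CD mice and 28.4 to 69.7 CPM, median 51.5, in FFD mice. Both genes had CD mouse 5 inside the FFD range and all other CD mice above it. Their log2 fold changes were -0.91 (standard error 0.23, adjusted p = 0.00786, edgeR) and -0.82 (standard error 0.22, adjusted p = 0.0126, edgeR).

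Cdc20, the activator that the checkpoint holds back, fell by 0.79 on the log2 scale, and Espl1, which encodes the protease separase, fell by 0.67. Pttg1, which encodes securin, the inhibitor of separase, had the smallest difference of the 54 genes. Its mean was 17.5 ± 1.75 CPM in CD mice and 14.7 ± 2.81 CPM in FFD mice (log2 fold change -0.25, adjusted p = 0.136, edgeR) and was the 1 member with an unadjusted p above 0.05.

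Compared per base of exon (RPKM, that is, the CPM divided by the exon length in kilobases, on GENCODE M21), the levels in CD mice spanned 1.15 for Kif18a to 92.3 for Stmn1, with a median of 9.73 RPKM. Stmn1 and Hmgb2 (91.9 RPKM) stood well above the next genes, Plk1 at 45.2, Cdc20 at 39.6 and Ccnb2 at 38.8 RPKM. Mki67, whose exons are long, had 20.5 RPKM. At the low end were Cenpk with 1.43 and Cdc25c with 1.96 RPKM. The 54 genes lie on 17 chromosomes, and 18 of them share exon sequence with another annotated gene, 13 with a protein-coding one, so their levels are less certain.

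The median log2 fold change was -0.65 over the 54 genes and -0.033 over all genes tested. By role it ran from -0.55 for the transcription factors to -0.79 for anaphase and mitotic exit. Together the 54 genes took 0.25% to 0.44% of the counts of a CD mouse and 0.10% to 0.29% of those of an FFD mouse.

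The mice of a diet differed from each other in these genes. In 2 of the 54 genes, Bub3 and Stmn1, every FFD mouse lay below every CD mouse, and the same held for 9.59% of all genes tested. CD mouse 5 was the lowest CD mouse in 52 of the 54 genes, and FFD mouse 6 was the lowest of all mice in 51. At the other end, CD mouse 3 was the highest of all mice in 33 genes and CD mouse 4 in 19. FFD mouse 3 was the highest FFD mouse in 40 genes and FFD mouse 1 in 11. Since the genes were measured in the same cells of the same mice, these counts are not independent of each other.

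On the log2 scale, relative to the CD mean of each gene, the median member lay at 0.04, -0.12, 0.30, 0.27 and -0.48 in CD mice 1 to 5. In FFD mice 1 to 6 it lay at -0.36, -0.66, -0.24, -0.90, -0.41 and -1.65. CD mouse 5 was thus below FFD mice 1, 3 and 5. FFD mouse 6 was below every CD mouse in all 54 genes, FFD mouse 4 in 49 and FFD mouse 2 in 39, whereas FFD mouse 3 was so in 3.

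**Figure D4:**
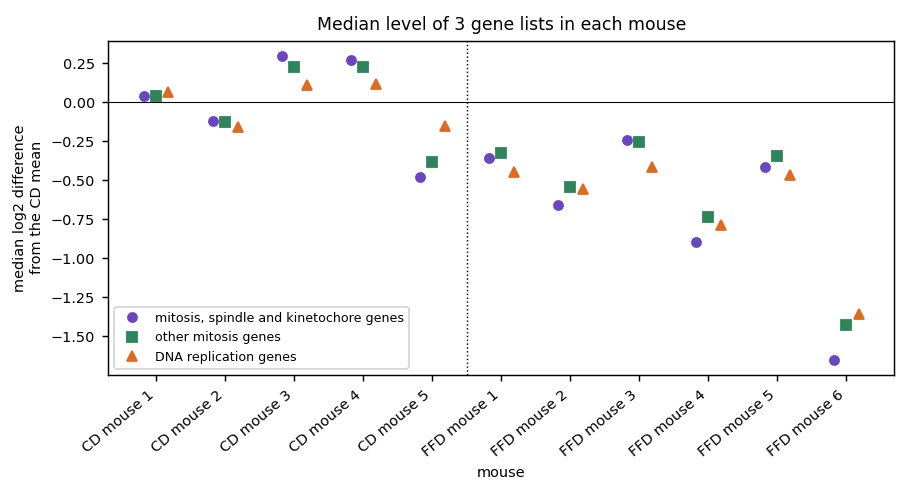
Median over each list of the log2 difference from the CD mean of the gene (y axis) in each mouse (x axis) for the 54 mitosis genes, 78 other mitosis genes and 52 DNA replication genes. The mitosis genes of CD mouse 5 lie at -0.48, lower than 3 of the 6 FFD mice, while the replication genes of the same mouse lie at -0.15, above all FFD mice.

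The genes of DNA replication act in the S phase before mitosis and serve here as the nearest comparison. Of 52, 51 fell and 0 rose, with a median log2 fold change of -0.66, close to that of the mitosis genes. Their median coefficient of variation among CD mice was 11.9%, against 21.6% for the mitosis genes. Without CD mouse 5 it was 10.1% for replication genes and 15.02% for mitosis genes. With all CD mice it was 12.1% over all genes tested and 8.75% over those within the mitosis genes' range of CD means. Among FFD mice it was 22.7% for replication genes, 30.8% for mitosis genes, 14.7% over all genes tested and 10.5% over those of like level. Without FFD mouse 6 it was 12.1% for replication genes, 17.4% for mitosis genes and 13.2% over all genes tested. The median standard error of the log2 fold change was 0.154 for replication genes and 0.217 for mitosis genes. In CD mouse 5 the median replication gene lay at -0.15 and the median mitosis gene at -0.48. In FFD mouse 6 the medians were -1.36 and -1.65. Both lists were measured in the same mice. The difference between them was not tested, since they were chosen with earlier results of these data known.

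The number of genes called depended on single mice. Without CD mouse 3 it was 13 of 54, and without CD mouse 4 it was 15. Without CD mouse 5 it was 49. The share of all genes called lower, 18.6% with all mice, was 13.0%, 14.4% and 16.3% in these fits. Without CD mouse 5, 33 of the 54 genes had no overlap between the diets, against 5 without FFD mouse 3. The share of all genes with no overlap was not counted with a mouse left out, so these counts cannot be set against all genes. CD mouse 5 was the lowest CD mouse in 52 of the 54 genes, and FFD mouse 3 the highest FFD mouse in 40. Leaving either out therefore moves the edge of its diet away from the other diet in those genes. The log2 fold changes of all 54 genes stayed below 0 with any mouse left out. With CD mouse 5 and FFD mouse 6 both left out, a choice made after seeing the data, 52 genes were called and the median was -0.60. In the same fit 14.99% of all genes tested were called lower, against 18.6% with all mice. The 13 genes that passed with each of the 11 mice left out in turn, and in the other alternatives as well, were Plk1, Bub3, Birc5, Cenpk, Spc24, Kif22, Stmn1, Racgap1, Smc4, Ncapd2, Hmgb2, Ube2c and Cdca3. All other genes that passed with all mice lost the call without CD mouse 3. Cenpe, Kif23 and Pttg1 did not pass in any of the 11 fits that left out a mouse.

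**Figure D5:**
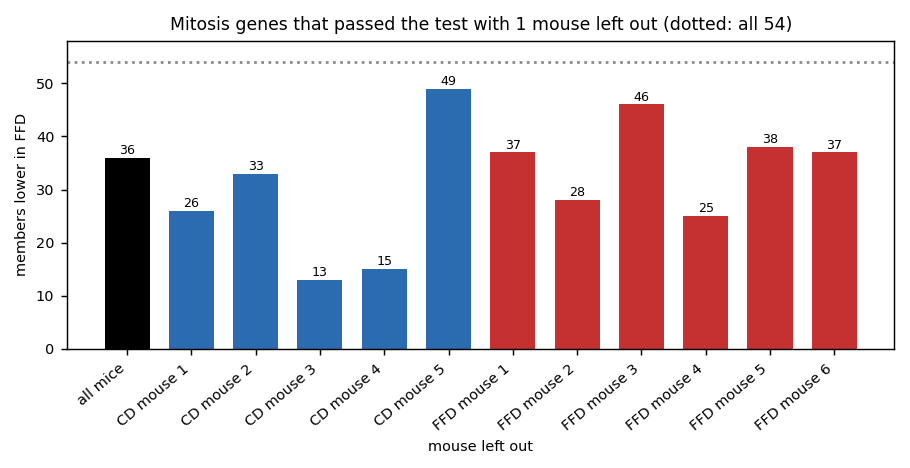
Number of the 54 mitosis genes called lower in FFD (y axis; edgeR, adjusted p below 0.05) with all mice and with each mouse left out (x axis; blue, a CD mouse; red, an FFD mouse). The count was 36 with all mice, 13 without CD mouse 3 and 49 without CD mouse 5. Of all genes tested, 18.6%, 13.0% and 16.3% were called lower in the same fits.

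Other genes of mitosis, 78 that are not among the 54, showed 47 lower and 0 higher, with a median log2 fold change of -0.57. The 2 with the smallest p were Cenpm, of the inner kinetochore (log2 fold change -0.94, adjusted p = 0.00279, edgeR), and Pkmyt1, a kinase that holds CDK1 inactive (-0.58, adjusted p = 0.00329, edgeR). In both of them every FFD mouse lay below every CD mouse. Lists of machinery that is also present outside mitosis had medians nearer 0. Of the 16 genes of the anaphase-promoting complex, 7 fell and 0 rose, with a median of -0.20, and Anapc5 (-0.59) and Anapc11 (-0.40) had the smallest p. Cohesin, the ring that holds sister chromatids together, had 4 of 13 genes lower and 1 higher with a median of -0.18. Among these Cdca5, which encodes sororin, fell by 0.76 and Smc3 by 0.26, and the loader subunit Mau2 rose by 0.17 on the log2 scale (adjusted p = 0.0323, edgeR).

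Upstream of mitosis, 7 of 11 G1 cyclins and kinases fell and 0 rose. Cdk4, the kinase of the D cyclins, went from 128 ± 10.2 CPM in CD to 66.6 ± 14.5 CPM in FFD (log2 fold change -0.94, standard error 0.14, adjusted p = 0.00105, edgeR), and Ccne2, a cyclin of S phase entry, fell by 0.77. The E2F, pocket and MuvB proteins had 8 of 18 genes lower and 0 higher with a median of -0.25. E2f3 (-0.48) and Rbbp4 (-0.43) had the smallest p of this list, and E2f1 had the largest fall in it (-0.78). Of the genes of centrosome duplication, 3 of 10 fell and 0 rose, among them Plk4, the kinase that starts it (-0.62), and Cep152, the scaffold that recruits that kinase (-0.39). In the replication list the genes with the smallest p were Uhrf1 and the licensing factor Cdt1.

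Of 7 CDK inhibitors, 6 were tested, of which 1 was called lower, 1 higher and 4 neither. These shares were near those of all genes tested, 18.6% lower and 18.2% higher. Cdkn1a, which encodes p21, had 103, 101, 101, 93.4 and 124 CPM in CD mice 1 to 5 and 120.1 to 239 CPM, median 166, in FFD mice. CD mouse 5 was the highest CD mouse and the only CD mouse inside the FFD range. Cdkn1a rose by 0.74 on the log2 scale (standard error 0.15, adjusted p = 0.00304, edgeR). Cdkn2c, which encodes p18, fell by 0.64 (adjusted p = 0.0210, edgeR).

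Markers of cell types also differed between the diets. The summed level of 12 absorptive colonocyte markers was 7641 to 11309 CPM in CD mice and 13887 to 23345 CPM in FFD mice, lowest in CD mouse 3, highest of the CD mice in CD mouse 5, lowest of the FFD mice in FFD mouse 3 and highest in FFD mouse 6. Of the 12, 8 rose and 0 fell. The sum of 13 crypt base and stem cell markers was 688 to 863 CPM in CD mice, lowest in CD mouse 5, and 477 to 655 CPM in FFD mice, highest in FFD mouse 3 and lowest in FFD mouse 6. Of 12 tested, 9 fell and 0 rose, among them the stem cell genes Lgr5 (log2 fold change -1.37) and Axin2 (-1.49). Goblet cell markers summed to 5193 to 9813 CPM in CD mice and 11077 to 17077 CPM in FFD mice, and 4 of 8 rose while 1 fell. The order of the mice in these sums did not always match that in the mitosis genes. CD mouse 4, high in the mitosis genes, had a crypt sum of 693 CPM, close to the 688 CPM of CD mouse 5. The largest parts of that sum were Slc12a2 (263 to 389 CPM in CD mice) and Ephb2 (102 to 118 CPM), and Ephb2 was not called. Single markers went both ways. Lgr5 (5.62 against 2.39 CPM), Smoc2 (30.1 against 7.86 CPM), Ascl2, Ephb3, Cd44, Znrf3 and Slc12a2 were higher in CD mouse 4 than in CD mouse 5. Sox9 (65.1 against 89.0 CPM), Ephb2, Myc, Axin2, Rnf43 and Olfm4 were lower. The highest crypt sum, 863 CPM, was in CD mouse 1. FFD mouse 5 had an absorptive sum of 22274 CPM, above FFD mice 2 and 4, whose mitosis medians were lower. The part of these markers in the differences of the mitosis genes was not tested.

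Macrophage and monocyte markers summed to 88.1 to 130 CPM in CD mice and 131 to 163 CPM in FFD mice, with 3 of 13 tested higher, and neutrophil markers to 26.6 to 73.0 CPM and 73.7 to 286 CPM, with 3 of 5 tested higher. Most of the macrophage sum came from Cd14, with 68.9 to 105 CPM in CD mice and 104 to 131 CPM in FFD mice. Most of the neutrophil sum came from Ly6g, with 19.9 to 60.8 CPM in CD mice and 63.6 to 217 CPM in FFD mice. The 3 neutrophil markers that rose were Ly6g, Ltf and S100a8, by 2.20, 2.66 and 1.51 on the log2 scale. Ltf reached 60.3 CPM in FFD mice, while S100a8 and S100a9 stayed at or below 5.32 CPM in every mouse. T and B cell markers summed to at most 4.76 CPM in any mouse, with 1 of 4 tested higher (Cd8b1, log2 fold change 0.89, adjusted p = 0.0198, edgeR). Innate lymphoid and NK cell markers summed to 60.2 to 95.0 CPM in CD mice and 64.1 to 84.0 CPM in FFD mice, with 1 of 8 tested higher. Stromal and endothelial markers summed to at most 8.29 CPM and red blood cell markers to at most 7.97 CPM in any mouse, with 0 of 3 and 1 of 2 tested genes higher. Epithelial markers (12 of 12 detected, 11 higher and 0 lower in FFD) summed to 15478 CPM or more in every mouse, and none was at 0. Ribosomal protein genes took 4.65% to 6.34% of the counts in CD mice and 2.88% to 4.47% in FFD mice. Whether these shares bear on the mitosis genes was not tested.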

How the data were processed

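RNA from colonic epithelial cells of 5 CD and 6 FFD mice was sequenced as polyadenylated mRNA. The authors deposited a table of raw read counts per gene, which they made by mapping single-end reads to the mouse genome (GRCm38) in the CLC Workbench; the submitters' processing notes name FastQC, R 3.5.1 and DESeq2 1.22.2. Not given in the sources used here: annotation release, strand setting and the handling of reads that map to several places. The deposited counts were used as they are, and no normalized column was needed.

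Genes were kept by filterByExpr (minimum count 10, minimum total 15), scaled by TMM and tested for diet with edgeR's quasi-likelihood test (edgeR 4.0.16, limma 3.58.1, R 4.3.3) over all 15044 genes that passed, with Benjamini-Hochberg adjustment and a threshold of 0.05. The procedure was tested on simulated data. CPM are TMM-normalized, and log2 fold changes are FFD over CD. The depth was 10374154 to 28588266 counts per mouse, and the lowest count of any member in any mouse was 40. No pair of mice of a diet was alike within sampling noise (smallest chi-square per degree of freedom 12.6).

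Groups and mouse numbers were taken from the sample names. The 54 members and all other lists were chosen with earlier results of these data known, so no list was given a test of its own. All members are named by role; in each role full values are given for the 2 with the smallest p, and for Mki67, Cdk1, Ccnb1, Aurkb and Top2a as markers. From other lists the 2 genes with the smallest p and up to 3 of the minority direction are named. E2f1, Lgr5, Axin2, Cd14, Ly6g, Ltf, S100a8, S100a9 and Cd8b1 were named after their values had been seen. So were the other crypt markers that are named. Lists of epithelial, absorptive, crypt, goblet, macrophage, neutrophil, T and B cell, innate lymphoid, stromal and red blood cell markers were summed per mouse. Alternatives were DESeq2 size factors, upper-quartile or no TMM scaling, no or a stricter filter (25), DESeq2 1.42.0, limma-voom, robust dispersion estimates, each mouse left out and a replicate block. Gene positions and exon lengths came from GENCODE M21 on GRCm38, and promoter windows from RefSeq on GRCm38.p6. All 54 symbols matched one annotated gene.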

Additional observations from a re-analysis of the deposited data

Results flagged for a closer look

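Within-diet outliers were looked for by Dixon's test in 110 groups (54 genes and the median over them, in each diet), and 3 were found, where chance gives about 1 in 20. Plk1 had 79.8 CPM in CD mouse 5, and the next CD mouse had 101.9 CPM. Spc25, a kinetochore gene that did not pass the test, had 12.1 CPM in FFD mouse 6, against 18.9 CPM in the next FFD mouse. Kif20b, a kinesin that did not pass either, had 11.5 CPM in FFD mouse 6, against 23.0 CPM in the next. These are the mice that were lowest of their diet in most of the 54 genes.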

How the results depend on the processing

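All 54 genes kept a log2 fold change below 0 in every alternative run, and none was called higher. The number called lower was 36, and it ran from 13 (without CD mouse 3) to 49 (without CD mouse 5) with 1 mouse left out, including 15 without CD mouse 4 and 25 without FFD mouse 4. The share of all genes called lower was 18.6% with all mice. It was 13.0% without CD mouse 3, 14.4% without CD mouse 4, 16.3% without CD mouse 5 and 16.1% without FFD mouse 4. The number of the 54 genes with no overlap between diets was 2, where 9.59% of all genes tested had every FFD mouse below every CD mouse. It ran from 2 to 33 with 1 mouse left out, with 33 without CD mouse 5 and 5 without FFD mouse 3. It was 34 with CD mouse 5 and FFD mouse 6 both left out, a choice made after seeing the data. The matching share of all genes was not counted in the fits with mice left out, so those counts cannot be set against all genes. Scaling, filter and tool moved the number called to between 33 (robust fit) and 43 (DESeq2), except that it was 54 without TMM scaling. The share of all genes called lower was 18.4% in the robust fit and 8.41% in DESeq2, there of 32619 genes. It was 6.76% of 32619 genes with no filter, 22.1% with the stricter filter and 32.3% without TMM scaling. Without TMM, 4863 of all genes were lower and 1636 higher, against 2792 and 2740 with it. The mouse numbers were not treated as pairs, since deviations of mice with the same number correlated at -0.28 to 0.23 over 5 pairs, and 2 of 5 pairs correlated best with their own number. With the number as a replicate block, in which FFD mouse 6 has no partner, 29 of the 54 genes were lower with a median of -0.50, and 1829 of all genes were lower. The cause of these changes was not tested. Depth left each of the 54 genes with at least 40 counts in every mouse.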
